A study of Mus musculus with 16 samples.

Results

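The genes described are 10 neutrophil granule genes, measured on the 16 arrays of the series, out of 18193 genes that the array annotation names. Elane, Mpo, Prtn3 and Ctsg belong to the primary (azurophil) granule, and Ltf, Camp, Ngp, Lcn2, Mmp8 and Mmp9 belong to the secondary (specific) and tertiary (gelatinase) granules. A probe set was taken where its annotation gives 1 of these 10 symbols and no other gene. This gave 11 probe sets, 2 of them for Mmp9 and 1 for each other gene, and of the pair the probe set with the higher mean over all arrays is shown.

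The Eμ-xbp-1s transgene carries the mouse xbp-1s cDNA, the spliced and active form of this unfolded protein response factor, behind an immunoglobulin VH promoter and the Eμ enhancer, with eGFP behind an IRES. With this enhancer the transgene is active at all stages of B cells, and part of the T cells express it as well. The arrays cover B220+ splenic B cells of 5 wild-type (nontransgenic) mice and of 5 Eμ-xbp-1s mice, all 20 weeks old, together with 6 Eμ-xbp-1s MM samples. All mice were of a C57BL/6 background, B cells were taken with magnetic beads, and no sort is described for the MM tumors, whose ages and tissue the labels do not give. In the comparisons of MM, any difference of tissue thus cannot be told apart from one of group. The labels do not say which founder line each Eμ-xbp-1s sample came from, nor whether each MM sample was of a mouse of its own, so the spread between MM arrays may be partly technical.

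Neutrophils fill their granules in a fixed order as they mature in the marrow. Promyelocytes make the primary granule proteins, which are serine proteases and myeloperoxidase, and then stop. Myelocytes and metamyelocytes make the secondary granule proteins, band cells make the gelatinases, and a mature neutrophil in blood or spleen keeps the proteins of all these granules but little of the early transcripts. The balance of primary to secondary granule mRNA thus follows the stage of the granulocytic cells in a sample. Most of these genes are largely restricted to granulocytes and their precursors, while Mmp9 and Lcn2 are also made by macrophages and other cells.

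The promoters of the members of both classes are shown because the classes differed in their values in the B cells. Ltf, Camp, Ngp and Mmp8 all lie on chromosome 9. Prtn3 and Elane lie side by side on chromosome 10, with 0 genes annotated between them. The 250 bases upstream of the RefSeq start site (GRCm38.p6, 5′ to 3′ on the plus strand for the 4 genes printed) are at chr10:79886062-79886311 for Elane and at chr10:79879417-79879666 for Prtn3, with the letters AGGAAGT in capitals.
Elane: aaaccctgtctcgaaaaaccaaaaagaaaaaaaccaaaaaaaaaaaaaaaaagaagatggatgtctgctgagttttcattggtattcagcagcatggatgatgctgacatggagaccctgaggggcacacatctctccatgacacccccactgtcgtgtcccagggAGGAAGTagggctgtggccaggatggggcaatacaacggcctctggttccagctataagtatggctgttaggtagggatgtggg
Prtn3: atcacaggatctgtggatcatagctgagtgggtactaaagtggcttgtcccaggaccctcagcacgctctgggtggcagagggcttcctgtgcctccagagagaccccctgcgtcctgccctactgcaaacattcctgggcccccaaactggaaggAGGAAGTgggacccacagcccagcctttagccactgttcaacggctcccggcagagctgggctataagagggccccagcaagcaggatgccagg
For the lactoferrin gene Ltf the window is chr9:111019042-111019291 and for the neutrophilic granule protein gene Ngp it is chr9:110419558-110419807, with matches to TTGCNNAA in capitals on either strand.
Ltf: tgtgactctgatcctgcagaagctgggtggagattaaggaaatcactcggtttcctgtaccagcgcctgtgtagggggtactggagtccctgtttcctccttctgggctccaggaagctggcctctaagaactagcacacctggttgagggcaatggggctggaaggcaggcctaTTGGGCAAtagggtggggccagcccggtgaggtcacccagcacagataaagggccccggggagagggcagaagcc
Ngp: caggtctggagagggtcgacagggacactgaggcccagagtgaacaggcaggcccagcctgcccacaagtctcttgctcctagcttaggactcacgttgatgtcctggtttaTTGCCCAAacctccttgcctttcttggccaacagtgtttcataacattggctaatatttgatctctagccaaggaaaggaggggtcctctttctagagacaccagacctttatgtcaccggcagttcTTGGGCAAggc

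Both sets of letters were chosen after the sequences had been seen, and a match is a description of the letters only. AGGAAGT is of the purine-rich kind that ETS factors bind, and it was found on either strand in 4 of 4 primary granule windows against 1 of 5 secondary and tertiary windows, that of Mmp8. In 2525 of 32851 RefSeq promoter windows of the same length, or 7.69%, these letters were present. TTGCNNAA resembles paired C/EBP half-sites and was found in 0 of 4 primary windows and in 4 of 5 of the others, those of Ltf, Ngp, Lcn2 and Mmp8. It was present in 9.56% of all windows. Mmp8 was the only gene whose window held both, 221 and 19 bases before the start, and they did not overlap. Mmp9 was not among the promoter sequences used.

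In Eμ-xbp-1s against wild-type B cells, the 6 secondary and tertiary genes had log2 fold changes of 1.16 (Mmp9) to 3.49 (Camp). The 4 primary granule genes had log2 fold changes of 0.19 (Ctsg) to 0.88 (Elane). The values of Camp, Mmp8 and Prtn3 are lower bounds. The difference between the classes was not tested. All 6 secondary and tertiary genes were higher on every Eμ-xbp-1s array than on every wild-type array. Camp, Ngp, Lcn2 and Mmp8, at 5.18-fold or more, passed the test (limma, adjusted p under 0.01). Of all 20596 probe sets tested, 2.75% were called higher and 0.481% lower. None of the primary granule genes was called, but only Mpo among them was bright enough to be tested. Over all 45037 probe sets, 3.72% had every Eμ-xbp-1s array above every wild-type array, against 7 of the 10 granule genes, the 7th being Elane. These are bulk samples, in which fewer cells of a type and less RNA per cell cannot be told apart.

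**Figure D1:**
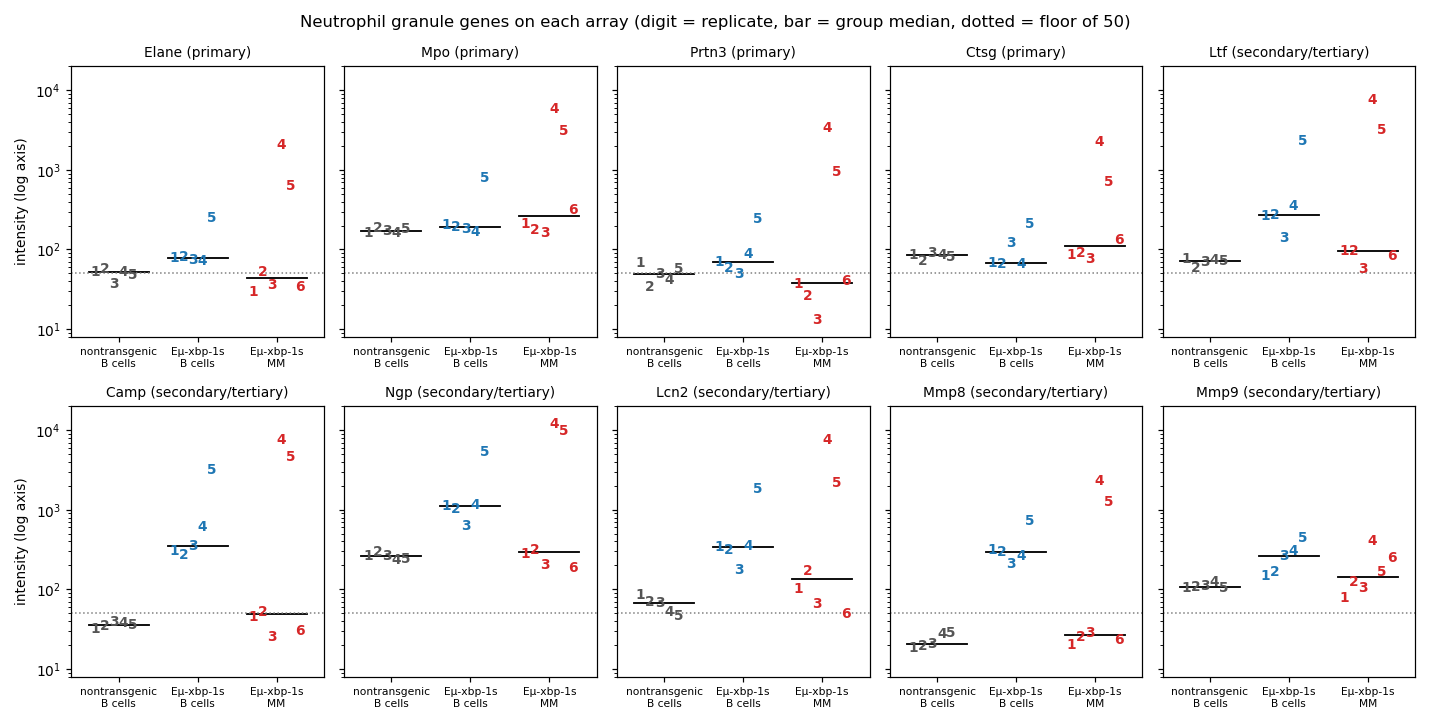
Intensity of each granule gene (log axis) on each array of the 3 groups, with digits for replicates, bars for group medians and a dotted line at the floor of 50. In Eμ-xbp-1s B cells the secondary and tertiary genes sit above all wild-type arrays, replicate 5 is the highest for every gene, and in MM replicates 4 and 5 stand above the other 4 for 9 of the genes.

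Among the primary granule genes, Mpo, which encodes myeloperoxidase, read 161, 187, 169, 160 and 178 in wild-type replicates 1 to 5 and 206, 192, 183, 165 and 799 in Eμ-xbp-1s B cell replicates 1 to 5. The first 4 Eμ-xbp-1s arrays lay within or just above the wild-type range, and replicate 5 stood alone. The log2 fold change of Mpo was 0.55 (SE 0.36, limma adjusted p = 0.452), and it was 0.12 without replicate 5.

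Elane, the gene of neutrophil elastase, read 51.5, 57.6, 36.9, 51.9 and 48.2 in the wild type, all near the floor of 50 under which values were raised. In Eμ-xbp-1s B cells it read 78.4, 80.4, 73.8, 71.5 and 248. The groups did not overlap, but 4 of the 5 Eμ-xbp-1s values were under 100, so that Elane did not enter the test. Prtn3, the gene of proteinase 3, read 68.8, 58.7, 49.7, 89.0 and 240 in Eμ-xbp-1s B cells, and 33.5 to 68.5 in the wild type. Ctsg, which encodes cathepsin G, read 66.8, 66.2, 120, 65.8 and 208 there, against 70.8 to 90.0. Both pairs of groups overlapped. Elane, Prtn3 and Ctsg passed the filter of 100 on 1, 1 and 2 of the 10 arrays and were not tested, so no call was possible for them.

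Among the secondary granule genes, Camp, which encodes the cathelicidin antimicrobial peptide, read 32.0, 34.5, 39.5, 37.9 and 35.6 in wild-type B cells, all under the floor. In Eμ-xbp-1s B cells it read 300, 272, 352, 609 and 3167. The lowest of these was well above every wild-type value, and the log2 fold change was 3.49 (SE 0.55, limma adjusted p = 0.00196), at least 11.2-fold since the wild-type values were at the floor. Mmp8, the gene of neutrophil collagenase, was the other gene wholly under the floor in the wild type, at 18.3 to 28.5. It read 312, 291, 206, 265 and 727 in Eμ-xbp-1s B cells, at least 6.49-fold higher (log2 fold change 2.70, SE 0.27, limma adjusted p = 6.04e-05).

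Ngp, a cystatin-like protein of the specific granule, was above 100 on every wild-type array, at 263, 299, 260, 236 and 241. The Eμ-xbp-1s values were 1114, 1035, 621, 1155 and 5263, each above the highest wild-type value. Its log2 fold change was 2.37 (SE 0.44, limma adjusted p = 0.00608), a 5.18-fold difference. Lcn2, the gene of the iron-siderophore binding protein lipocalin 2, went from 46.7 to 85.7 in the wild type to 341, 311, 173, 349 and 1850 in Eμ-xbp-1s B cells (log2 fold change 2.70, SE 0.49, limma adjusted p = 0.00565).

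Ltf and Mmp9 were higher on all 5 Eμ-xbp-1s arrays too but did not pass the threshold. Ltf, which encodes the iron-binding protein lactoferrin, read 267, 268, 138, 356 and 2325 against 58.5 to 76.1, a log2 fold change of 2.46 (SE 0.58, limma adjusted p = 0.0243). Mmp9, the gelatinase of the tertiary granule, read 146, 164, 263, 305 and 446 against 103 to 124, with a log2 fold change of 1.16 (SE 0.26, limma adjusted p = 0.0210). The second probe set of Mmp9, with means of 152 and 73.0, did pass (log2 fold change 1.03, SE 0.20, limma adjusted p = 0.00889).

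Replicate 5 of the Eμ-xbp-1s B cells was the highest array for all 10 genes and set much of the size and of the spread. Without it, Camp, Ngp, Lcn2, Mmp8 and also Ltf were called, with log2 fold changes of at least 2.86, 1.88, 2.16, at least 2.41 and 1.81. Ltf, Camp, Lcn2 and Mmp8 were above 100 on no wild-type array and entered the test only through the Eμ-xbp-1s arrays, so they had to differ to be tested at all. In a fit of all 45037 probe sets with no such filter, Mmp8 alone was called (limma adjusted p = 0.00257), where 0.83% of probe sets were called higher, and the other 5 secondary and tertiary genes had adjusted p from 0.0300 to 0.135. Without replicate 4, or without any 1 of the wild-type arrays, only Camp and Mmp8 were called, and with the MM arrays in the same fit none was, although 5 of the 7 genes tested were at an unadjusted p under 0.05 in limma.

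**Figure D2:**
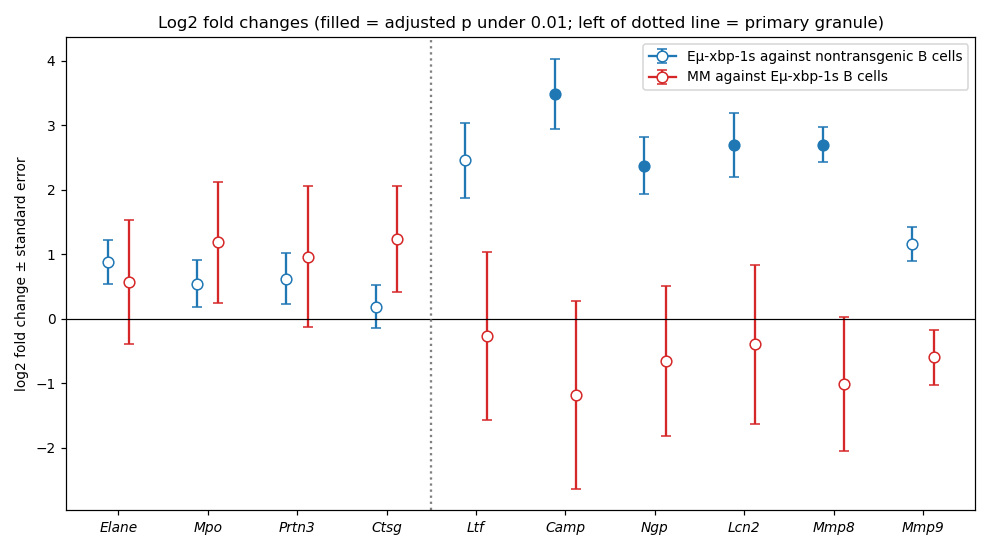
Log2 fold change with its standard error for each granule gene, for Eμ-xbp-1s against wild-type B cells (blue) and MM against Eμ-xbp-1s B cells (red), filled where the adjusted p was under 0.01. The 6 secondary and tertiary genes stand at 1.16 to 3.49 in the first comparison and the 4 primary genes at 0.19 to 0.88. There Camp, Mmp8 and Prtn3 are lower bounds. In the second the bars of all 10 genes are wide and no point is filled.

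Within the Eμ-xbp-1s B cells, replicates 1 and 2 gave nearly the same values for most granule genes, and over 11369 bright probe sets these arrays had the smallest difference of any pair within a group of the series (SD of the log2 difference 0.168, against 0.419 to 0.828 for the other Eμ-xbp-1s pairs). They were kept as 2 samples, and with their mean as 1 sample Camp, Ngp, Lcn2, Mmp8 and Mmp9 were called. Wild-type replicates 1 and 2 also lay closer to each other than to replicates 3 to 5. Replicates 1 and 2 of both groups alone gave log2 fold changes of at least 2.51 for Camp and 0.20 for Mpo, and replicates 3 to 5 alone gave at least 4.14 and 0.78. For Mmp8 both were lower bounds, 2.59 and 2.77, since all its wild-type values were under the floor.

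To follow both classes array by array, the mean floored log2 intensity of the 4 primary genes and that of the 6 others were each set against their wild-type mean. The secondary and tertiary mean of Eμ-xbp-1s B cell replicates 1 to 5 stood 2.02, 1.97, 1.64, 2.41 and 4.36 above the wild type on the log2 scale. The primary mean stood 0.22, 0.15, 0.26, 0.20 and 1.99 above it. The primary mean was above the highest wild-type array (0.07) on all 5 arrays, by little on replicates 1 to 4 and clearly on replicate 5. Single genes did not all follow their class, as Mmp9 stood 0.42 and 0.58 above its wild-type mean on replicates 1 and 2 and Elane 0.59 and 0.63. The difference of primary minus secondary, from its wild-type median, was -1.78, -1.80, -1.37, -2.20 and -2.35 over these 5 arrays, against -0.01 to 0.11 over the 5 wild-type arrays. The groups did not overlap. Since values under 50 were raised to 50, rises of Elane and Prtn3 are compressed in this measure, and so are those of Camp and Mmp8. With a floor of 16, the log2 fold changes of Camp and Mmp8 were 3.97 and 3.85, in place of at least 3.49 and at least 2.70. With a floor of 100 the median of the difference in Eμ-xbp-1s B cells was -1.42 in place of -1.80.

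**Figure D3:**
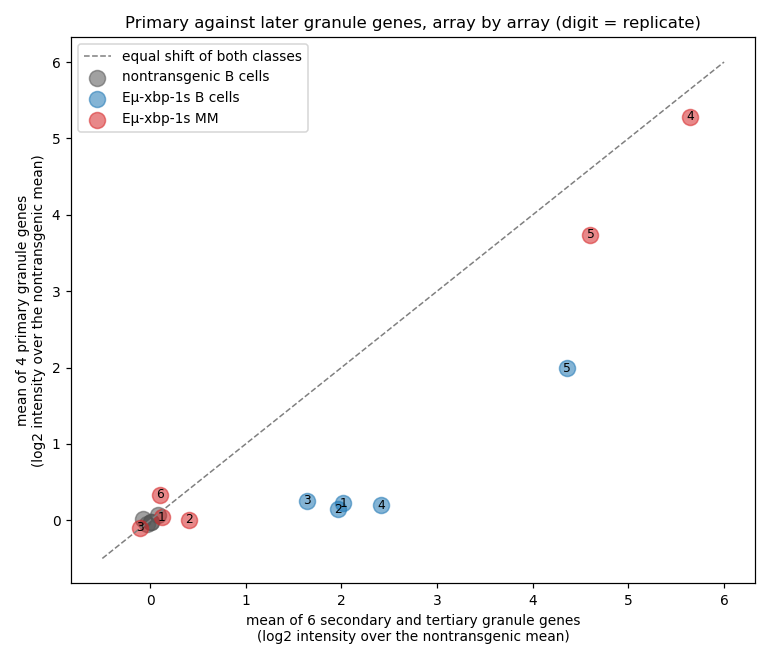
Each point is an array, placed by the mean of the 6 secondary and tertiary genes (x axis) and of the 4 primary genes (y axis), both as log2 intensity over the wild-type (nontransgenic) mean, with the dashed line marking equal shifts. Eμ-xbp-1s B cell replicates 1 to 4 lie at 1.64 to 2.41 on x and near 0 on y, replicate 5 at 4.36 and 1.99, and MM replicates 4 and 5 at 5.65 and 5.28 and at 4.60 and 3.74.

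In MM the granule genes split the samples. Replicates 4 and 5 held both classes at high levels, and replicates 1, 2, 3 and 6 were near the wild-type B cells for most genes. Mpo read 5903 and 3049 in MM replicates 4 and 5 and 160 to 312 in the other 4. Elane read 2067 and 629 against 29.6 to 52.1, and Prtn3 3345 and 950 against 12.9 to 39.8. Ctsg read 2251 and 698 against 76.2 to 130. Elsewhere in the series the highest value of a primary granule gene was the 799 of Mpo on Eμ-xbp-1s B cell replicate 5.

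The secondary genes were high on the same 2 arrays, with 7565 and 4649 for Camp, against 25.0 to 52.6 in the other 4 MM samples. Ngp read 11824 and 9847 against 188 to 310, Ltf 7640 and 3145 against 57.6 to 95.5, and Lcn2 7633 and 2174 against 49.5 to 170. Mmp8 read 2296 and 1237 against 19.9 to 28.6. For 9 of the 10 genes the lower of the 2 arrays was 5.37 or more times the highest of the other 4, with values under 50 raised to 50. This ratio was at least 19.0 for Prtn3 and at least 24.7 for Mmp8, whose other values were all under the floor, and 88.3 for Camp, whose highest other value lay just above it. Mmp9 was the exception, since replicate 6 read 250, above the 166 of replicate 5.

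With such a split no granule gene was called between MM and Eμ-xbp-1s B cells. Of 22194 probe sets tested, 1.28% were called higher and 1.91% lower in MM, and all 10 granule genes were tested with none called by limma or by SAM, and with 0 at an unadjusted p under 0.05 in limma. The log2 fold changes were 0.57 to 1.24 for the 4 primary genes and -1.18 to -0.27 for the 6 others, with standard errors of 0.82 to 1.09 and 0.42 to 1.46. For Mmp9 it was -0.60 by the probe set shown and -0.05 (SE 0.35) by the second, which was not called either. With MM replicates 4 and 5 left out, Camp and Mmp8 were called lower in MM, where 1.19% of probe sets were called lower. These arrays were chosen with their values known and are the highest for both genes, the MM values that remain are at or about the floor, and both genes then pass the filter only through the Eμ-xbp-1s arrays, so that this direction was fixed by the choice and is given as a description.

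Against wild-type B cells, 5 of the 10 granule genes could be tested in MM and none was called, by limma or by SAM. By the probe sets shown, 0 were at an unadjusted p under 0.05 in limma. The second probe set of Mmp9 had a log2 fold change of 0.98 (SE 0.34, limma unadjusted p = 0.0132, adjusted p = 0.0580) and was not called. Of 21894 probe sets, 3.95% were called higher and 5.65% lower. All 10 log2 fold changes were positive, from 0.56 for Mmp9 to at least 2.31 for Camp. Apart from that of Mmp9, they rested mainly on replicates 4 and 5. Mmp9 was also high on MM replicate 6, which read 250, above the 166 of replicate 5. Without replicates 4 and 5 the 4 genes still tested stood at 0.28 for Mpo, -0.11 for Ngp, 0.45 for Lcn2 and 0.21 for Mmp9. Each pair of these comparisons shares the arrays of a group.

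Replicate 5 of the Eμ-xbp-1s B cells and replicate 5 of MM had similar secondary and tertiary means (4.36 and 4.60 over the wild type), but their primary means differed, at 1.99 and 3.74. On the linear scale, the intensity of each gene above its wild-type mean was set side by side for these 2 arrays. The primary genes were 2.91 to 4.92 times as high in MM replicate 5 as in Eμ-xbp-1s replicate 5, the lowest being Elane. The secondary genes Ltf, Camp, Ngp, Lcn2 and Mmp8 were 1.18 to 1.92 times as high, and Mmp9 was 0.167 times as high. MM replicate 4 showed the same order, with ratios of 9.12 to 17.4 for the primary genes and of 0.891 to 4.24 for the others. These ratios compare single arrays, with no replicate check.

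**Figure D4:**
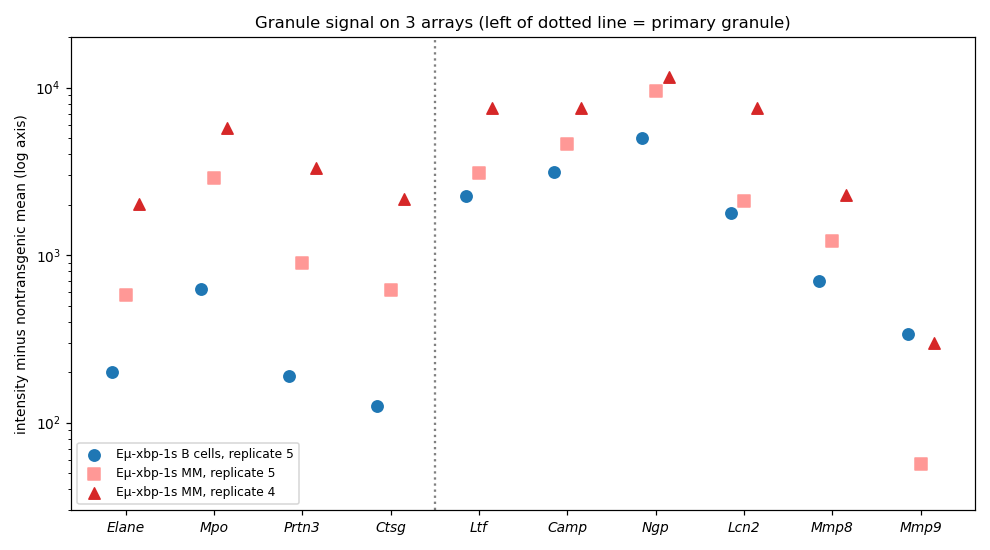
Intensity above the wild-type (nontransgenic) mean (log axis) of each granule gene on 3 single arrays, Eμ-xbp-1s B cell replicate 5 and MM replicates 5 and 4. The symbols of MM replicate 5 lie 2.91 to 4.92 times above those of Eμ-xbp-1s replicate 5 for the 4 primary genes, and 0.167 to 1.92 times for the 6 others.

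Other genes of neutrophils, from lists that hold no member, were split in the same comparison of B cells. Late neutrophil genes of the cytosol and surface had 4 of 10 tested called higher and 0 lower, with a median log2 fold change of 1.41 over the 10 genes named on the array, against -0.05 over all probe sets tested, of which 2.75% were called higher. S100a8 and S100a9, which form the calprotectin of the neutrophil cytosol, had log2 fold changes of 4.72 (SE 0.57, limma adjusted p = 0.000256) and 4.55. S100a8 read 3772, 3627, 4347, 4663 and 8190 in Eμ-xbp-1s B cells and 33.5 to 451 in the wild type, so replicate 5 stood out less than for Camp. The chemokine receptor Cxcr2, which marks late neutrophils, rose by a log2 fold change of at least 1.88, and the C-type lectin Clec4d by at least 2.36. Cxcr2 and Clec4d were above 100 on no wild-type array and entered the test only through the Eμ-xbp-1s arrays, and the 4 genes were also called with no filter on low values.

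Among 17 other genes of secondary, tertiary and secretory granules named on the array, 12 were tested, 5 were called higher and 0 lower. Of all probe sets tested, 2.75% were called higher and 0.481% lower. Of the 12 genes, 10 had log2 fold changes above 0, and Cybb (-0.08) and Cyba (-0.09) were slightly lower. The 5 called were Chil3 (log2 fold change at least 3.90), Lyz1 (3.31), Lyz2 (2.62), Hp (at least 2.49) and Anxa1 (2.12). Chil3, a chitinase-like protein, Lyz1 and Lyz2, the lysozymes, and Anxa1 are also made by macrophages. Chil3 and Hp entered the test only through the Eμ-xbp-1s arrays, and all 5 were also called with no filter. Hp, the haptoglobin of the specific granule, read 211 to 338 in Eμ-xbp-1s B cells and 16.7 to 37.3 in the wild type. Of the 4 other primary granule genes named, 3 were tested and 0 called by limma, and their unadjusted p values were all 0.102 or more. These 3, Serpinb1a, Gusb and Ctsc, are made by many cells. Ms4a3, which marks granulocyte and monocyte progenitors, read 66.1 to 170 in Eμ-xbp-1s B cells and 51.1 to 67.8 in the wild type and was not tested.

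Of 7 transcription factors of granulopoiesis tested, 4 were called higher in Eμ-xbp-1s B cells and 0 lower, where 2.75% of all probe sets were called higher. With no filter on low values 2 of these calls were lost, those of Cebpb (limma adjusted p = 0.0106) and Myb (0.0430), while Cebpa and Cebpd, called in both fits, had entered the filtered test only through the Eμ-xbp-1s arrays. Cebpb, the C/EBP of emergency granulopoiesis, had a log2 fold change of 1.95 (SE 0.26, limma adjusted p = 0.000538). Cebpd, another late-acting C/EBP, stood at 1.36 or more, Cebpa, which commits progenitors to the granulocyte line, at 1.13, and Myb, a progenitor factor, at 1.04. Spi1 (0.22), Irf8 (-0.50) and Runx1 (-0.17) were not called. In MM against wild-type B cells, Cebpa (1.96) and Cebpd (at least 2.26) were called, as were Lyz1 (3.73) and Lyz2 (3.49). Of all probe sets tested there, 3.95% were called higher. Cebpa and Cebpd were above 100 on no wild-type array and entered that test only through the MM arrays. With no filter on low values the call of Cebpa was lost (limma adjusted p = 0.0201), and Cebpd, Lyz1 and Lyz2 were still called. None of the neutrophil lists had a gene called between MM and Eμ-xbp-1s B cells. Lyz2 read 7800 to 9522 on MM replicates 1 to 3, 6392 and 1687 on replicates 4 and 5, and 4891 on replicate 6. In the same order Lyz1 read 6480 to 7488, 4230 and 1097, and 3982. Cebpa read 416 to 586, 252 and 145, and 135. These genes were thus highest on replicates 1 to 3, where most granule genes were near wild-type B cells. Cebpd read 510 and 232 on replicates 4 and 5, against 173 to 239 on the others.

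Markers of some other cells also differed between the B cell groups. In Eμ-xbp-1s against wild-type B cells, 7 of 7 T cell markers tested were called higher, as were 3 of 6 erythroid, 2 of 6 megakaryocyte, 1 of 10 monocyte and macrophage (Csf1r), 1 of 4 blood progenitor (Kit), 0 of 5 plasma cell and 0 of 1 eosinophil, basophil and mast cell markers, against 2.75% of all probe sets. With no filter on low values, all 3 erythroid calls were lost (limma adjusted p of 0.0341 for Alas2, 0.0327 for Car1 and 0.0609 for Car2), as was that of Cd4 (0.0170), which left 6 T cell calls. Of the 7 T cell markers called, 5 had entered the filtered test only through the Eμ-xbp-1s arrays. The same held for Alas2, the megakaryocyte marker Ppbp and Kit, of which Ppbp and Kit were also called with no filter. The 7 mature B cell markers were all lower (median log2 fold change -0.75) and 0 were called. Cd79a, a chain of the B cell receptor, read 6241 to 7662 in the wild type, 2777 to 5550 in Eμ-xbp-1s B cells and 62.8 to 3346 in MM. Thy1, a T cell surface protein, read 51.2 to 82.1 in the wild type and 1119 to 1657 in Eμ-xbp-1s B cells, and the mean of the T cell list lay between 9.26 and 9.69 on all 5 Eμ-xbp-1s arrays (log2 intensity), against 6.14 to 6.36 in the wild type. The part of these cells in the granule result was not tested.

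The T cell mean did not follow the array-by-array order of the granule genes, since Eμ-xbp-1s replicate 5 stood at 9.50, inside the range of the other 4, and in MM it was 6.72 and 6.11 on replicates 4 and 5, against 8.48 to 8.93 on replicates 1 to 3 and 6.20 on replicate 6. The erythroid mean was 9.50 on replicate 3, 8.60 on replicate 5 and 7.17 to 7.50 on the other 3 Eμ-xbp-1s arrays, and replicate 3 had the lowest mean of the secondary and tertiary genes in the group. Alas2, which starts heme synthesis in red cell precursors, read 4045 on replicate 3 and 329 to 559 on the other 4. In MM the erythroid mean was 11.07 and 11.86 on replicates 4 and 5, where the granule genes were high, and 5.85 to 6.30 on the other 4. The megakaryocyte mean moved the same way, at 9.91 and 9.63 against 6.58 to 7.0. Mature B cell markers on these 2 arrays stood at 7.12 and 6.29, and at 8.52 to 10.14 on the other 4. Plasma cell markers were at 8.27 and 6.89, against 7.51 to 8.49. Markers of eosinophils, basophils and mast cells had list means of 5.80 to 5.90 in the wild type, 6.03 to 6.32 on the Eμ-xbp-1s B cell arrays, and 6.56 and 6.61 on MM replicates 4 and 5 against 5.80 to 5.87 on the other 4. The monocyte and macrophage mean was 9.45, 9.28, 8.56, 9.30 and 9.54 on Eμ-xbp-1s replicates 1 to 5, against 8.07 to 8.56 in the wild type. In MM it was 9.96 to 10.01 on replicates 1 to 3, 10.41 and 9.09 on replicates 4 and 5, and 8.63 on replicate 6. The part of erythroid, megakaryocyte, monocyte and macrophage, or mast cell and related cells in the granule values was not tested.

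**Figure D5:**
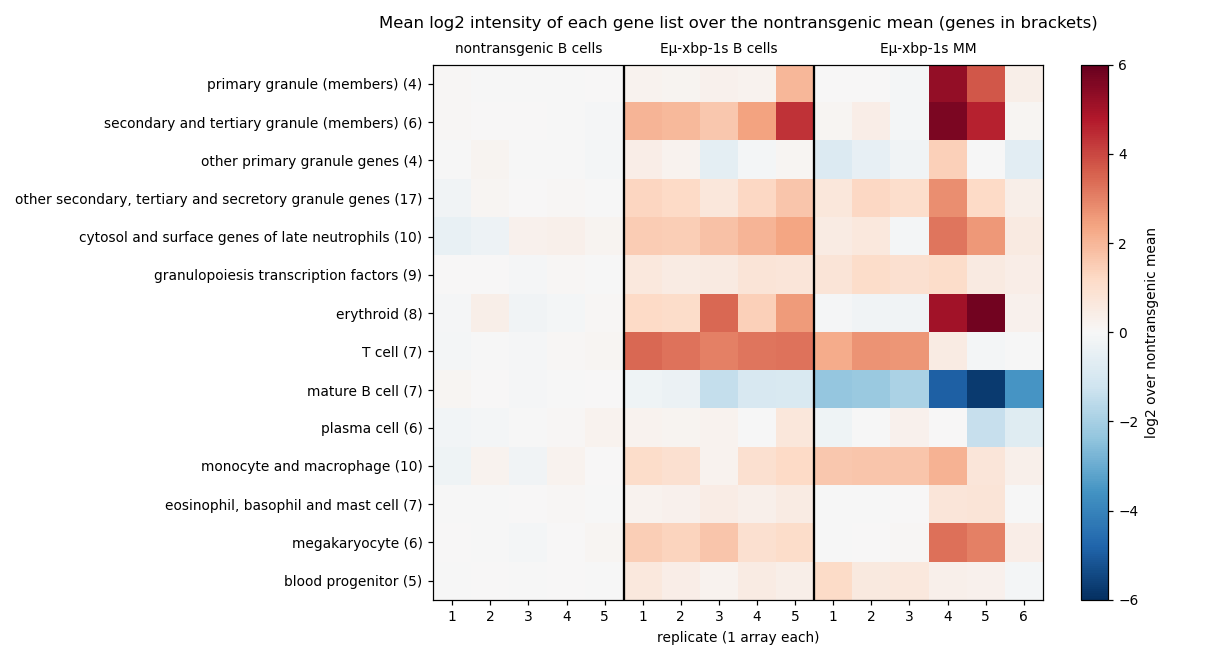
Mean log2 intensity of each list of genes (rows, with the number of genes) on each of the 16 arrays (columns), as the difference from the wild-type (nontransgenic) mean, in red where higher and blue where lower. Secondary and tertiary granule and T cell lists are red on all 5 Eμ-xbp-1s B cell arrays, and on MM replicates 4 and 5 both granule classes and the erythroid list are red while the mature B cell list is blue.

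The genes with the pattern most like each class were sought over the 16 arrays among 11401 genes, as a description. Ms4a3, whose product marks granulocyte and monocyte progenitors, was most like the mean of the primary genes (Pearson's r 0.981), and next came Crispld2 (0.963), Cd177 (0.962), Ncam1 (0.961) and Vcl (0.953). Ms4a3 read 1028 and 441 on MM replicates 4 and 5 and 60.2 to 124 on the other MM arrays. Slfn4 (0.982), Ifitm6 (0.980), Wfdc21 (0.976), Retnla (0.975) and Cd177 (0.944) were most like the secondary and tertiary genes. Cd177, a glycoprotein of the neutrophil surface and specific granule, was thus on both lists. These values rest mainly on MM replicates 4 and 5 and Eμ-xbp-1s replicate 5, where all granule genes are high, and arrays of a group share their preparation.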

How the data were processed

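RNA of B220+ splenic B cells (5 wild-type and 5 Eμ-xbp-1s mice) and of 6 Eμ-xbp-1s MM samples was hybridized to Affymetrix mouse arrays. The deposited values are linear intensities, a single value for every probe set on an array, made by the authors in dChip, which scaled the arrays to a baseline array of median intensity and modelled perfect match minus mismatch signals. Small differences of dim genes are therefore uncertain, and presence calls were not used. The number of arrays limits the precision. Array medians were 69.0 to 82.9. Groups and replicate numbers came from the sample titles.

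Control probe sets (64) were left out, values under 50 were set to 50, and log2 intensities were tested with limma (3.58.1, under R 4.3.3) by lmFit and eBayes for 2 groups at a time. A probe set had to exceed 100 on over 20% of the compared arrays. P-values were adjusted by Benjamini-Hochberg over all probe sets tested, with a threshold of 0.01. Code was tested on simulated data. A fold change is given as "at least" where the lower group was at the floor. SAM, the test of the study's methods, was run with 100 permutations at an FDR of 1%. Same-numbered wild-type and Eμ-xbp-1s arrays deviated together (correlations 0.512, 0.527, 0.218, 0.176 and 0.512), so numbers were taken as pairs in an alternative with a replicate block. In the comparisons of MM some were negative, so the numbers do not pair the samples there, and the block, which leaves no weight to MM replicate 6, was run only as an alternative. Promoter windows came from RefSeq GRCm38.p6. Tables used pandas 2.3.3 and numpy 2.4.6 and plots matplotlib 3.10.9, under Python 3.11.15. The genes named were the 10 members, up to 6 past the test with the largest changes in each list and any defining member, and the 5 genes most like each class. The members and lists were chosen with earlier results of these data known.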

Additional observations from a re-analysis of the deposited data

Results flagged for a closer look

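Of 30 groups of arrays (10 genes in 3 groups), 4 held an array far from its neighbours, by the gap to the nearest array divided by the range of the group, and chance alone gives about 1 in 20. In Eμ-xbp-1s B cells replicate 5 stood apart for Elane (0.905) and Mpo (0.861), where it read 248 and 799. Wild-type replicate 2 was high for Elane as floored (0.735), at 57.6, and wild-type replicate 4 was high for Mmp9 (0.714), at 124. No array of MM met this criterion, where the high values of all genes but Mmp9 came in a pair.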

How the results depend on the processing

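Between Eμ-xbp-1s and wild-type B cells, 4 granule genes were called higher. The count was 2 with a floor of 100 (Ngp and Mmp8), 1 with no filter on low values (Mmp8) and 0 with all 3 groups in a single fit, where the 7 genes tested included 5 at an unadjusted p under 0.05 in limma, and it ran from 2 to 5 when each array was left out in turn. With the replicate block it was 4, and the block, in which the same genes were called, changed no other call. SAM and a threshold of 0.05 gave 6. Over all 20596 probe sets tested, SAM also called more than limma, with 1132 higher against 567. The single fit of all 3 groups called 199 of them higher, and the fit with no filter called 374 of 45037. For the other settings between the B cell groups the calls over all probe sets were not counted, so their counts have no share to be set against. Settings that average or split the replicates were chosen after seeing the data: replicates 1 and 2 averaged (5), only replicates 1 and 2 (5), only replicates 3 to 5 (3) and a term for replicates 1 and 2 against 3 to 5 (5). With only replicates 1 and 2, the fit set 2 arrays against 2. Its Eμ-xbp-1s pair was unusually close (SD of the log2 difference 0.168), so its spread may be too small and its count too high. The labels name no batch, and the split of replicates 1 and 2 from 3 to 5 came from the likeness of the arrays. Between MM and Eμ-xbp-1s B cells the count went from 0 to 1 with array weights (Mmp8) and to 2 without MM replicates 4 and 5, which hold the highest values of both genes (Camp and Mmp8), and between MM and wild-type B cells it stayed at 0 under all settings run. In MM against Eμ-xbp-1s B cells the log2 fold change changed sign for Elane (-0.37) and Prtn3 (-0.024) with array weights, for Mpo (-0.27) and Ctsg (-0.0077) without MM replicates 4 and 5, and for Ltf (0.12) and Lcn2 (0.13) with the replicate block, which drops the unpaired MM replicate 6 and gives the same values as leaving out that array alone. With single arrays left out, Ltf ran from -1.18 to 0.38 and Lcn2 from -1.32 to 0.14. In MM against wild-type B cells Ngp stood at -0.11 without MM replicates 4 and 5. None of these values passed the test, and the cause of the other sign changes was not tested. Values of single genes between the B cell groups kept their direction under every setting run, with 25 of them no longer past the threshold and 13 newly past it. Genes near the floor of 50 in the wild type have no measured lower limit.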
